A study of Mus musculus with 8 samples.

Results

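The liver response to IUB288, a peptide agonist of the glucagon receptor, was described in wild-type (WT) mice on the C57Bl/6J background. The comparison set 2 WT mice given IUB288 against 2 WT mice given vehicle, all fasted for 2 h before the livers were taken. The series also holds 2 IUB288-treated and 2 vehicle-treated KO mice of a floxed Fxr line, and these served only to show where the WT response differed. The recombinase, the dose, the length of treatment, the age and the sex of the mice are not given in the sources used here. The labels mention a high-fat and a chow diet without saying which mouse was fed which, so a diet difference between the groups cannot be told apart from the treatment.

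The response was read from 12726 named loci that the authors' table marks as tested, out of 26682 loci listed. Of these, 10660 reached 1 FPKM (fragments counted on a transcript, scaled by its length and by the library's depth) in at least 1 group and were ranked. The authors pooled the 2 mice of a group into 1 value per locus, so the levels below carry no spread between mice. Each pair of levels is given as vehicle, then IUB288. A locus was called where the q-value (the p-value adjusted over all tested loci) in the authors' deposited table was under 0.05. The verbs rose and fell are used for called loci alone. The ± beside a log2 fold change is the error implied by the deposited test statistic. Depth per library is unknown.

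Glucagon acts on hepatocytes through a receptor coupled to adenylyl cyclase. The resulting cyclic AMP activates protein kinase A, which phosphorylates the transcription factor CREB and its partners. The pathway is known in liver for raising glucose output from amino acids and lactate, for raising urea production, and for lowering fat synthesis.

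Of the 15164 tested loci, named or not, 1117 were called, which is 7.37% of them. Among them 601 (3.96%) were higher and 516 (3.4%) were lower with IUB288. These shares are the reference for the list counts below. Among the ranked loci 541 rose, which is 5.08%, and 410 fell, which is 3.85%. Changes of at least 2-fold were seen in 755 of these, at least 4-fold in 204 and at least 16-fold in 29. The called locus nearest the threshold had q = 0.0496 and the nearest one outside it had q = 0.0501, both from the authors' deposited table. At the FPKM limit, Zfp947 (1.00 to 0.958 FPKM) lay just inside, while B3galtl (0.663 to 0.998 FPKM) and Akap17b (0.617 to 0.998 FPKM) lay just outside. The plot of fold change by level shows the called loci across the whole range of expression.

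**Figure D1:**
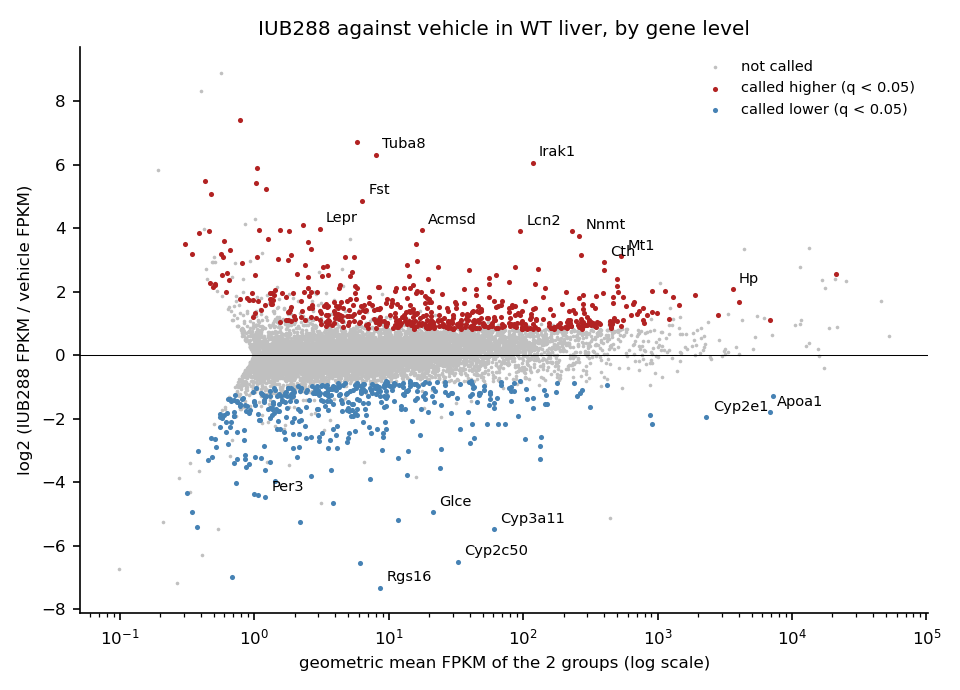
Each point is a ranked locus listed above 0 in both groups. The x axis is the geometric mean of its 2 pooled FPKM values (log scale) and the y axis is log2 of IUB288 over vehicle. Red points were called higher, blue points lower and grey points were not called. Rgs16 lies lowest among the labelled genes (log2 fold change -7.33) and Tuba8 highest (6.31).

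Increases were more frequent among abundant transcripts. In ranked loci with a mean of 100 to 1000 FPKM, 18.5% rose, 3.24% fell and the middle locus had a log2 fold change of 0.42. Between 1 and 10 FPKM, 2.66% rose and 3.84% fell, with a median of -0.04. Locus span moved with the result as well. With the loci in 5 equal groups by span, 9.47% of the shortest group rose and its median was 0.28, while 3.47% of the longest group rose and its median was -0.08. The part of abundance and span in the results that follow was not tested. Over all tested loci the median log2 fold change was 0.03.

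Genes of glucose production rose more often than they fell. Of 22 tested gluconeogenesis genes 7 rose and 2 fell, which is 31.8% and 9.09% against 3.96% and 3.4% of all tested loci. The list's median log2 fold change was 0.84. Many of these genes are abundant, and of ranked loci with a mean of 100 to 1000 FPKM 18.5% rose. G6pc, the glucose-6-phosphatase that releases free glucose, went from 50.8 to 149 FPKM (log2 1.55 ± 0.42). Fbp1, the fructose-1,6-bisphosphatase, went from 625 to 1560.3 FPKM. Both were thus between 2.5-fold and 2.93-fold higher with IUB288. Of the malate-aspartate enzymes, cytosolic Got1 (146 to 541 FPKM) and mitochondrial Mdh2 (155 to 385 FPKM) rose. Mitochondrial Got2 was not called (289 to 299 FPKM). The mitochondrial ATP-Mg carrier Slc25a25 had the largest increase of the list, 4.23-fold (21.9 to 92.5 FPKM). Pck1, which makes phosphoenolpyruvate from oxaloacetate, stood at 880.4 to 1919.9 FPKM and was not called (log2 1.12 ± 0.61, q = 0.0805 in the authors' deposited table). The genes that fell are the 2 carriers at the end of the route: Slc2a2, the glucose transporter of the hepatocyte surface (104 to 36.1 FPKM), and Slc37a4, which carries glucose 6-phosphate into the endoplasmic reticulum (72.4 to 30.0 FPKM).

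Glycogen and glycolysis genes fell more often than they rose. Of 18 tested 4 fell (22.2%) and 1 rose (5.56%), against 3.4% and 3.96% of all tested loci. Pfkfb3, which makes the glycolytic activator fructose 2,6-bisphosphate, fell 9.31-fold (3.08 to 0.331 FPKM). Glycogen synthase (Gys2) was 151 to 72 FPKM and the branching enzyme Gbe1 42.7 to 17.7 FPKM. Ppp1r3c, a glycogen-targeting subunit of protein phosphatase 1, rose from 23 to 41.1 FPKM. In both lists the q-values of the called genes reported here in the authors' deposited table were 0.00163, the smallest q it holds, except for Fbp1 (0.00653), Tat (0.0332), Slc16a1 (0.048), Gys2 (0.0122) and Ppp1r3c (0.0486). When p-values were taken instead from the normal distribution of the deposited statistic and adjusted again, which is stricter, Fbp1, Mdh2, Tat, Slc16a1, Gys2, Gbe1 and Ppp1r3c were no longer called. This stricter reading is called the normal p below.

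Fast targets of cyclic AMP and CREB moved both ways. Of 26 tested 7 rose (26.9%) and 3 fell (11.5%), against 3.96% and 3.4% of all tested loci. Their median log2 fold change was 0.15. Sik1, a kinase induced by CREB that in turn inhibits CREB coactivators, rose 6.16-fold (2.15 to 13.2 FPKM). The nuclear receptor Nr4a1 rose 5.92-fold (0.86 to 5.09 FPKM). Crem, a relative of CREB with repressor forms, was 5.22 to 14.5 FPKM, the helix-loop-helix inhibitor Id3 20.6 to 64.1 FPKM and the phosphatase Dusp1 8.19 to 17.5 FPKM. Lpin1, a phosphatidate phosphatase and coactivator, fell 5.01-fold (76.1 to 15.2 FPKM). The Lpin1 level of 76.1 FPKM stood alone beside 16.4 FPKM in each KO group. The coactivator Ppargc1a (3.69 to 3.91 FPKM) and the insulin receptor substrate Irs2 (3.48 to 4.07 FPKM) were not called. The immediate early genes gave 4 decreases in 16 tested, among them Egr1 (8.93 to 1.89 FPKM) and Jun (5.28 to 1.63 FPKM). All the genes named here as risen or fallen had q = 0.00163 in the authors' deposited table except Dusp1 (0.0131), and Dusp1 was the one that lost its call under the normal p.

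The short form of the cyclic AMP response element, TGACG on either strand, stands in 13 of the 20 promoters of this list that the RefSeq table holds (65%), against 23% of 27025 promoters in that table, each of 300 bases. In the gluconeogenesis list the share was 5 of 17 (29.4%). The full element TGACGTCA, which contains the short form on both strands, is in 2.03% of promoters. Stretches of 3 promoters, the last 2 from the gluconeogenesis list, are shown because they carry such letters in genes of the glucagon pathway with a different outcome. They come from RefSeq (GRCm38.p6), run 5′ to 3′ on the gene's strand, and have the element in capitals. Nr4a1 (risen) holds 4 short forms at chr15:101266596-101266830, plus strand. Slc25a25 (risen) holds the full element at chr2:32424189-32424236, minus strand. Pck1 (not called) holds 1 short form at chr2:173152963-173153007, plus strand. A match is a description of the letters and not a site of binding.
Nr4a1: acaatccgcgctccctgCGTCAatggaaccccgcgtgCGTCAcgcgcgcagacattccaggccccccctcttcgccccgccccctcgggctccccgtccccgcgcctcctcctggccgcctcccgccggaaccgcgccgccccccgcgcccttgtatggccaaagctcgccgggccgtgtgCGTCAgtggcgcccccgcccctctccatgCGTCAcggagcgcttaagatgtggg
Slc25a25: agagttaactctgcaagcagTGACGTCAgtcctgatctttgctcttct
Pck1: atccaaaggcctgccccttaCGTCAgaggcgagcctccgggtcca

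Among enzymes that break down amino acids, increases outnumbered decreases. Over 6 lists of amino acid catabolism 24 of 88 tested genes rose (27.3%) and 2 fell (2.27%), against 3.96% and 3.4% of all tested loci. Many of these genes are abundant. Of ranked loci 18.5% rose at a mean of 100 to 1000 FPKM and 12.6% over 1000 FPKM, which is nearer to the share of these lists. In the urea cycle list 5 of 13 rose. Asl, the argininosuccinate lyase, was 263 to 823 FPKM (log2 1.65 ± 0.45) and Arg1, the arginase that releases urea, was 827 to 1816 FPKM. Nags, which makes the activator of the first urea cycle enzyme, was 25.5 to 61.3 FPKM, and the ornithine carrier Slc25a15 was 60.3 to 159 FPKM. Liver glutaminase (Gls2), which frees ammonia from glutamine, rose 3.55-fold (247 to 878 FPKM). Glutamine synthetase (Glul), which consumes ammonia, fell 2.43-fold (392 to 162 FPKM).

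Sulfur amino acids, serine and glycine gave 6 increases in 22 tested genes. The transsulfuration enzymes Cth (145 to 1105 FPKM, log2 2.93 ± 0.47) and Cbs (256 to 1006 FPKM) rose 7.65-fold and 3.93-fold. Mat1a, which makes S-adenosylmethionine in liver, was 831 to 2490.5 FPKM. The serine dehydratase-like gene Sdsl was 8.73 to 34.7 FPKM and Csad, of taurine synthesis, 23.3 to 86.8 FPKM. The tyrosine, phenylalanine and histidine list had 6 of 14 higher. Along the path of tyrosine breakdown Tat (544 to 1291 FPKM), Hpd (1823 to 4351 FPKM) and Hgd (374 to 1200.1 FPKM) rose. Histidase (Hal), of histidine breakdown, was 108 to 259 FPKM.

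The alanine-glyoxylate aminotransferase Agxt rose 5.22-fold (218 to 1138 FPKM) and Agxt2l1, the phosphoethanolamine lyase now named Etnppl, 4.9-fold (35.3 to 173 FPKM). Ornithine aminotransferase (Oat) was 372 to 1145 FPKM. Acmsd, which turns tryptophan away from NAD synthesis, rose 15.4-fold (4.48 to 68.8 FPKM). Nnmt, which methylates nicotinamide, rose 13.6-fold (71.1 to 966 FPKM). Nampt, of the NAD salvage path, fell 2.18-fold (9.84 to 4.52 FPKM). Of 15 branched chain amino acid and lysine genes 1 was called (6.67%), the lysine enzyme Aass, which rose (111 to 336 FPKM). In a list of 16 tested amino acid transporters 2 rose (12.5%) and 1 fell (6.25%), against 3.96% and 3.4% of all tested loci. Slc3a1 (17.2 to 55.4 FPKM) and Slc1a4 (1.39 to 3.65 FPKM) rose. The decrease was Slc25a47 (324 to 176 FPKM), a mitochondrial carrier that is not established as an amino acid transporter.

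Of the genes named as changed in the amino acid lists, those with q above 0.00163 in the authors' deposited table were Glul (0.00543), Arg1 (0.029), Mat1a (0.0156), Tat (0.0332), Hpd (0.0473), Nampt (0.00433), Slc3a1 (0.0463) and Slc25a47 (0.0415). Under the normal p these lost their call, as did Hal, Aass and Slc1a4. The urea cycle list kept 4 increases under the normal p, the sulfur amino acid list 4, and the tyrosine, phenylalanine and histidine list 1.

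**Figure D2:**
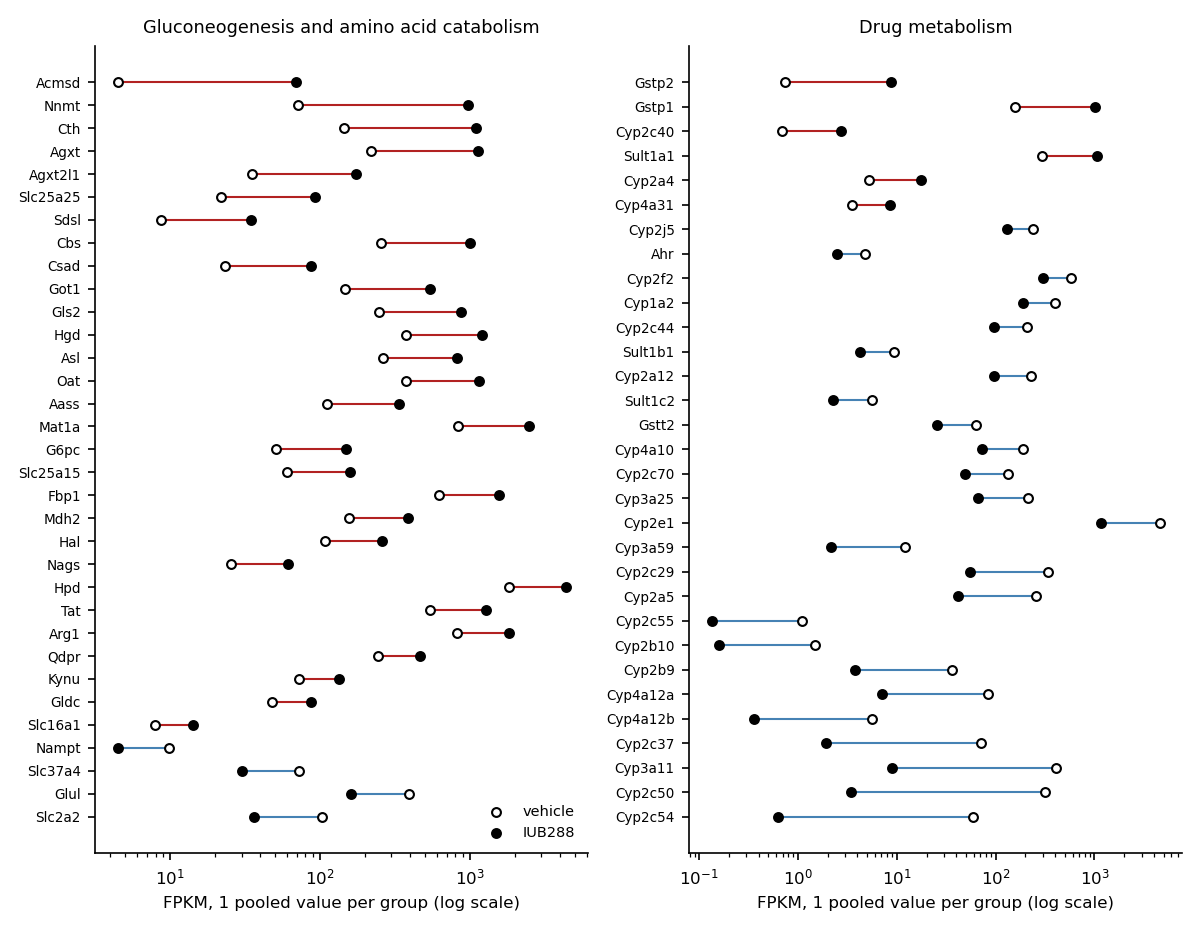
Pooled FPKM of the called genes reported here of at least 1 FPKM in 1 group (x axis, log scale), with open circles for vehicle and filled circles for IUB288, joined by red lines for genes called higher and blue lines for genes called lower. On the left, gluconeogenesis and amino acid genes run mostly to the right, up to 15.4-fold in Acmsd. On the right, drug metabolism genes run mostly to the left, down to 94.6-fold lower in Cyp2c54.

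Among fatty acid and triglyceride synthesis genes decreases outnumbered increases. Of 24 tested 10 fell (41.7%) and 1 rose, and the median log2 fold change was -0.88. Thrsp, a regulator of lipogenesis, fell 7.24-fold (362 to 50.003 FPKM). Scd1, the stearoyl-CoA desaturase, fell 4.47-fold (1909 to 427 FPKM, log2 -2.16 ± 0.70). The lipogenic transcription factors Srebf1 (85.8 to 37.9 FPKM) and Pparg (7.76 to 1.18 FPKM) fell as well, as did the lipase-family gene Pnpla3 (1.18 to 0.195 FPKM) and the phosphatidate phosphatase Lpin2 (75.9 to 27.2 FPKM). Mlxipl, the glucose-sensing factor ChREBP, was not called (99 to 106 FPKM), and neither was fatty acid synthase, Fasn, named here after its values were seen (71.9 to 38 FPKM, q = 0.0717 in the authors' deposited table). Agpat2, an acyltransferase of phosphatidate synthesis, rose 2.67-fold (143 to 381 FPKM). Under the normal p 4 of the 10 decreases were called (Thrsp, Pparg, Pnpla3 and Lpin2), and Srebf1, Scd1 and Agpat2 were not.

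Genes of the lipid droplet changed in both directions. G0s2, an inhibitor of the triglyceride lipase ATGL, rose 3.52-fold (75 to 264 FPKM) and the droplet protein Plin5 2.74-fold (29.5 to 80.6 FPKM). The droplet protein Cidec fell 5.76-fold (9.77 to 1.7 FPKM, q = 0.00433 in the authors' deposited table) and the fatty acid transporter Cd36 2.6-fold (30.0 to 11.5 FPKM). In fatty acid oxidation and ketogenesis 1 of 23 tested genes rose (4.35%) and 2 fell (8.7%), against 3.96% and 3.4% of all tested loci. Ppara, the nuclear receptor of the fasting response, fell from 44.3 to 19.4 FPKM (no longer called under the normal p), Vnn1 fell from 31.6 to 9.69 FPKM and Crat rose from 18 to 34.8 FPKM (q = 0.0332 in the authors' deposited table, no longer called under the normal p). Cpt1a (121 to 96.4 FPKM) and the hormone Fgf21 (5.16 to 4.74 FPKM) were not called.

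Of 20 tested apolipoprotein and VLDL genes 10% fell and 10% rose, against 3.4% and 3.96% of all tested loci. Apoa1 (12882 to 3714 FPKM, q = 0.0113 in the authors' deposited table) and Apoa4 (1681 to 456 FPKM) fell. The sphingosine 1-phosphate carrier Apom (137 to 355 FPKM) and Tm6sf2 (29.6 to 75.2 FPKM) rose. Apoa1 lost its call under the normal p. Fabp1, the fatty acid binding protein of hepatocytes, fell from 11273 to 4597 FPKM (q = 0.0214 in the authors' deposited table, no longer called under the normal p).

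Bile acid genes fell more often than they rose. In synthesis 4 of 16 tested genes fell and 1 rose. Cyp7a1, the rate-limiting enzyme of the classical route, fell 3.33-fold (8.96 to 2.69 FPKM). Cyp7b1, of the alternative route, rose 3.56-fold (29.5 to 105 FPKM). Cyp8b1 (192 to 164 FPKM) was not called. Of 16 transporters 6 fell (37.5%). These include the organic anion uptake carrier locus Slco1a1,Slco1a6 (39.5 to 4.86 FPKM), Slco1b2 (263 to 118 FPKM), the basolateral exporter Abcc3 (88.8 to 19.7 FPKM) and Abcg2 (25.4 to 9.6 FPKM). Slco1b2 lost its call under the normal p.

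Of 16 tested genes in the list of the bile acid receptor FXR and its targets 2 rose (12.5%) and 1 fell (6.25%), against 3.96% and 3.4% of all tested loci. Nr1h4, which encodes FXR and is the gene targeted in the KO line, stood at 49.3 to 40.3 FPKM in these WT mice (log2 -0.29 ± 0.40, q = 0.68 in the authors' deposited table). Its target Nr0b2 (SHP) was 44.2 to 42.3 FPKM and the bile salt export pump Abcb11 was 110.4 to 77.1 FPKM. None of these was called. In the KO mice Nr1h4 was still listed at 36.8 to 27.1 FPKM, so the levels of this locus do not show the loss of its transcript there. The increases were Sdc1, a heparan sulfate proteoglycan (4.72-fold, 56.4 to 266 FPKM), and Fgfr4, the FGF receptor of hepatocytes (14.3 to 25.6 FPKM, q = 0.0364 in the authors' deposited table, no longer called under the normal p). The decrease was Ppara, described above.

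Drug-metabolising enzymes held several of the largest decreases. Over 4 lists 25 of 85 tested genes fell (29.4%) and 6 rose. In the Cyp2a, Cyp2b and Cyp2c families 11 of 20 fell, and the median log2 fold change was -1.34. Cyp2c50 fell 91.2-fold (314 to 3.45 FPKM, log2 -6.51 ± 0.57), Cyp2c54 94.6-fold (59.2 to 0.626 FPKM) and Cyp2c37 37-fold (71.3 to 1.93 FPKM). Cyp2c29 (336 to 55.7 FPKM), Cyp2a5 (257 to 41.6 FPKM) and Cyp2b9 (36 to 3.78 FPKM) fell less. Within the same families Cyp2a4, a near copy of Cyp2a5, rose 3.38-fold (5.26 to 17.8 FPKM). These genes have close copies, so reads that fit several of them make each level uncertain.

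Among the other P450s 8 of 18 tested fell. Cyp3a11, the main CYP3A enzyme of mouse liver, fell 44.9-fold (404 to 9 FPKM, log2 -5.49 ± 0.52). Cyp2e1, the ethanol-oxidising P450, fell 3.9-fold (4564 to 1169 FPKM) and Cyp1a2 2.13-fold (401 to 188 FPKM). The xenobiotic receptor PXR (Nr1i2) was not called (34.7 to 40.7 FPKM). The receptor CAR, Nr1i3, named here after its values were seen, stood at 53.2 to 18.9 FPKM and was not called (the authors' deposited table has q = 0.0868). Among the omega-hydroxylases Cyp4a12a (83.2 to 7.05 FPKM), Cyp4a12b (5.68 to 0.36 FPKM) and Cyp4a10 (188 to 73.3 FPKM) fell, and Cyp4a14 (399 to 692 FPKM) was not called. Phase 2 genes were split, with 3 of 33 higher and 3 lower (9.09% each way, against 3.96% and 3.4% of all tested loci). Gstp1 rose 6.42-fold (157 to 1005 FPKM) and the sulfotransferase Sult1a1 3.54-fold (296 to 1049 FPKM). In the drug metabolism genes named here the changes had q = 0.00163 in the authors' deposited table except Cyp1a2 (0.0122). Cyp1a2, Cyp2e1 and Cyp4a10 lost their call under the normal p.

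Called genes of these families lay side by side in the genome. Runs of at least 3 adjacent loci with a call in the same direction numbered 10. The 4 runs of decreases were Cyp2c37, Cyp2c54, Cyp2c50 and Cyp2c70 at chr19:39992424-40187326, Cyp3a11, Cyp3a25 and Cyp3a59 at chr5:145854607-146113694, the carboxylesterases Ces2a, Ces2c, Ces2e and Ces2g at chr8:104734003-104969537, and 5 loci of the murinoglobulin group at chr6:121746930-122263603 (mm10).

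Genes with a known sex bias in mouse liver did not move in 1 direction. The sex of the mice is not labelled. The Y chromosome gene Ddx3y stood at 8.06 to 5.95 FPKM. Xist, made from the inactive X chromosome of females, stood at 0.0172 to 0.00718 FPKM, a pattern of male tissue. Of 17 male-biased genes 5 rose and 6 fell, and of 12 female-biased genes 4 rose and 1 fell. The male-biased urinary protein Mup20 rose (986 to 3657 FPKM) while Serpina12 fell (5.88 to 0.793 FPKM). Among female-biased genes the steroid enzyme Cyp17a1 rose 6.48-fold (50.8 to 329 FPKM) and the cytokine receptor Lifr 5.37-fold (24.2 to 129.9 FPKM). Mup20 had q = 0.00757 in the authors' deposited table and lost its call under the normal p.

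The circadian clock genes changed in both directions. Of 37 tested core clock and clock output genes 13 fell and 4 rose. The repressor Per3 fell 22.4-fold (5.72 to 0.256 FPKM, log2 -4.48 ± 0.59), Per2 3.74-fold (5.74 to 1.53 FPKM) and Bhlhe40 2.95-fold (42.4 to 14.4 FPKM). Bhlhe41, chosen after its values were seen, fell from 0.93 to 0.0612 FPKM. The activators Arntl (BMAL1; 0.827 to 8.39 FPKM, log2 3.34 ± 0.55) and Npas2 (0.209 to 2.08 FPKM) rose 10.2-fold and 9.95-fold. The repressor Cry1 rose 4-fold (1.17 to 4.68 FPKM).

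Clock output genes followed the same division. The transcription factor Tef fell 3.49-fold (36.7 to 10.5 FPKM), and Nfil3, which competes with TEF and DBP for their sites, rose 4.01-fold (8.05 to 32.2 FPKM). The cell cycle kinase Wee1 (2.66 to 0.273 FPKM), the deubiquitinase Usp2 (12.4 to 2.01 FPKM) and the uridine phosphorylase Upp2 (177 to 47 FPKM) fell. In the KO groups Usp2 stood at 2.35 to 1.89 FPKM and Upp2 at 51.7 to 44 FPKM, so their WT vehicle levels stood alone. Dbp was listed at 60.4 to 4.22 FPKM, but its error was wide (log2 -3.84 ± 1.58) and it was not called. Nr1d1 (REV-ERBα) was not called (63.1 to 43.5 FPKM), and Nr1d2 fell from 24.8 to 13.2 FPKM (q = 0.0369 in the authors' deposited table, no longer called under the normal p). The other clock genes named as changed had q = 0.00163 there. The labels do not state the hour at which each mouse was killed, so time of day cannot be told apart from treatment.

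Promoter stretches of 5 clock genes are shown because they carry the letters of the elements through which clock factors are known to act. They come from RefSeq (GRCm38.p6), run 5′ to 3′ on the gene's strand, and have the element in capitals. Per3 at chr4:151044796-151044890, minus strand, holds 2 copies of the D-box TTATGTAA, which is in 1.11% of all promoters. Bhlhe41 at chr6:145865548-145865593, minus strand, and Tef at chr15:81802526-81802571, plus strand, hold the E-box CACGTG, found in 8.09%. Arntl at chr7:113207530-113207558, plus strand, holds the REV-ERB and ROR core TAGGTCA, found in 2.97%, and Nfil3 at chr13:52981025-52981071, minus strand, holds it on the other strand. Over the tested members with a promoter in the table, the E-box is in 3 of 13 core clock genes (23.1%) and 3 of 15 clock output genes (20%), and the REV-ERB and ROR core in 1 of 13 (7.69%) and 2 of 15 (13.3%). The E-box genes not shown are Per1 (fallen), Cry1 (risen), and Lonrf3 and Tspan4 (not called), and the other gene with the REV-ERB and ROR core is Leo1 (not called).
Per3: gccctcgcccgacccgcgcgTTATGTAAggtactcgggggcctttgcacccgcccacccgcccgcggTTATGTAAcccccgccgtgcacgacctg
Bhlhe41: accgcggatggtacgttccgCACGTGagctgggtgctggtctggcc
Tef: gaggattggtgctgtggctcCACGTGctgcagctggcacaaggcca
Arntl: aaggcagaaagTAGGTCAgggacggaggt
Nfil3: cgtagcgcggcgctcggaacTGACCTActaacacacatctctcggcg

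**Figure D3:**
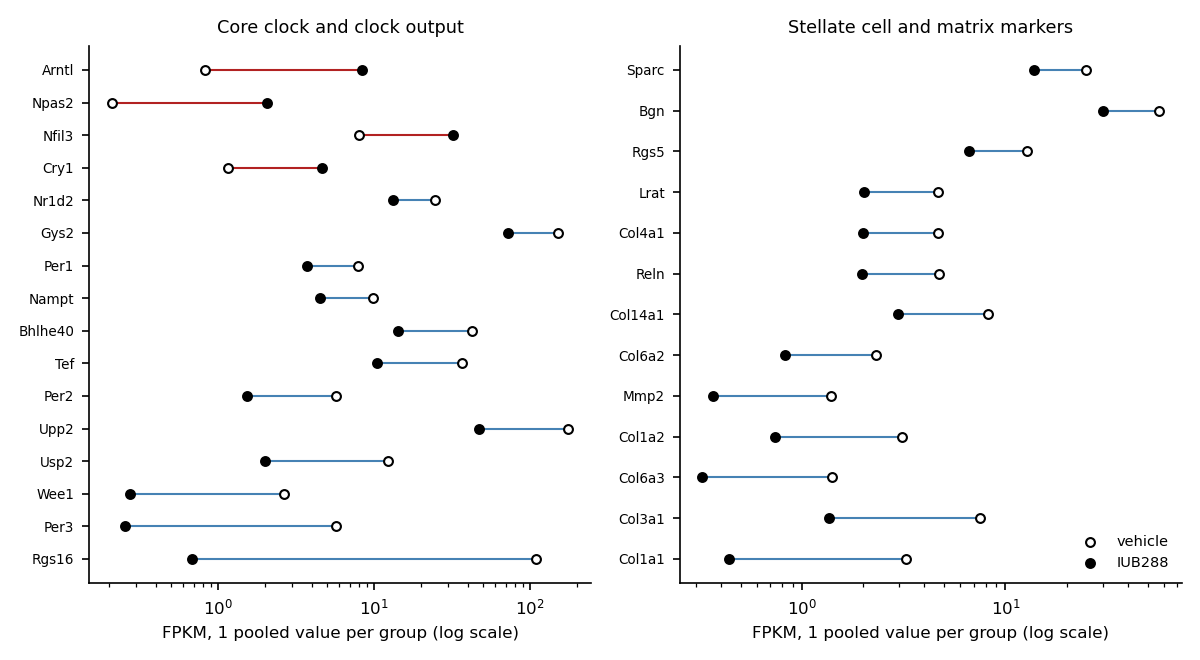
Pooled FPKM of each called gene of at least 1 FPKM in 1 group (x axis, log scale), with open circles for vehicle and filled circles for IUB288. Red lines join genes called higher and blue lines genes called lower. On the left 4 clock genes rise and the rest fall, Rgs16 from 110.1 to 0.686 FPKM. On the right every called stellate cell and matrix marker shown is lower with IUB288.

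Rgs16, which is both a clock output gene and a brake on G protein signalling, had the largest decrease of all called genes with 1 symbol listed above 0 in both groups. It went from 110.1 to 0.686 FPKM, a 161-fold difference (log2 -7.33 ± 0.59; chr1:153740353-153745468, mm10). The glucagon receptor Gcgr (130.0 to 125 FPKM) and its G protein subunit Gnas (275 to 303 FPKM) were not called. Adenylyl cyclase 9 (Adcy9) fell 2.12-fold (9.44 to 4.45 FPKM, q = 0.0104 in the authors' deposited table, no longer called under the normal p). The leptin receptor Lepr rose 15.8-fold (0.771 to 12.2 FPKM).

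Secreted factors of the liver included some of the largest increases. Fst (follistatin, which binds activins) rose 29.2-fold (1.17 to 34.3 FPKM, log2 4.87 ± 0.56). Inhbe, an activin subunit made by hepatocytes, fell 4.25-fold (30.8 to 7.24 FPKM). Of the growth hormone and insulin-like growth factor genes, Igf1 was not called (115 to 137 FPKM), Igfbp3 fell 3.26-fold (12 to 3.7 FPKM) and Igfbp1 rose 1.93-fold (37 to 71.6 FPKM, q = 0.0468 in the authors' deposited table). The growth hormone feedback gene Cish fell from 5.4 to 1.65 FPKM. In insulin signalling Irs1 rose 2.97-fold (3.16 to 9.39 FPKM), the pseudokinase Trib3 fell 3.4-fold (8.22 to 2.42 FPKM), and the insulin receptor Insr was not called (11.3 to 10.1 FPKM). Igfbp1 and Cish lost their call under the normal p.

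The metallothioneins, small proteins that bind zinc and copper, rose strongly. Mt2 rose 15.1-fold (59.4 to 896 FPKM, log2 3.91 ± 0.48) and Mt1 8.64-fold (183 to 1579 FPKM, log2 3.11 ± 0.44). The manganese exporter Slc30a10 rose 2.64-fold (4.1 to 10.8 FPKM). These were the 3 called of 13 tested genes of metal handling, and the uptake carrier Slc39a14 was not called (44.4 to 40.6 FPKM). Promoter stretches of both metallothioneins are shown because their metal response elements are textbook examples. They come from RefSeq (GRCm38.p6), 5′ to 3′ on the gene's strand, with capitals for the element core TGCACNC and for its variant TGCGCNC, on either strand. The window of Mt1 is chr8:94179046-94179118, plus strand, and that of Mt2 is chr8:94172375-94172647, plus strand. TGCACNC is in 14.2% and TGCGCNC in 17% of all promoters. Over the 11 tested metal handling genes with a promoter there, TGCACNC is in 6 (54.5%) and TGCGCNC in 5 (45.5%). Besides the metallothioneins, TGCACNC is in Slc39a5, Slc39a8, Slc30a1 and Atp7b, which were not called. TGCGCNC is also in Slc30a10 (risen), and in Slc30a1 and Slc30a5 (not called). The variant was added after the data were seen.
Mt1: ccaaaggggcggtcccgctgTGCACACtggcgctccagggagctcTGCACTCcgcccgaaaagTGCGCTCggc
Mt2: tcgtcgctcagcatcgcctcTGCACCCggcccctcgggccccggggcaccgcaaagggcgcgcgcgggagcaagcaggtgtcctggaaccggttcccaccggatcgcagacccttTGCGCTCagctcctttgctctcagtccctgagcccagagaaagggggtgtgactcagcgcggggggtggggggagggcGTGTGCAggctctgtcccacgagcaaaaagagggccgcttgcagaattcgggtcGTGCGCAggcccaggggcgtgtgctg

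Both metallothioneins are also glucocorticoid receptor targets. In that list 7 of 17 tested genes rose (41.2%) and 3 fell (17.6%), against 3.96% and 3.4% of all tested loci. The kinase Sgk1 rose 11.3-fold (4.74 to 53.5 FPKM) and Gadd45g 2.52-fold (9.7 to 24.5 FPKM). Against these, the glucocorticoid-induced genes Zbtb16 (11.9 to 4.18 FPKM), Fkbp5 (16.4 to 8.59 FPKM) and Per1 (7.97 to 3.75 FPKM) fell, with q of 0.00543, 0.0303 and 0.00945 in the authors' deposited table, and Tsc22d3 was not called (45.3 to 37 FPKM). Those 3 decreases and Gadd45g were lost under the normal p.

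Acute phase genes rose in part. Of 25 tested 9 rose (36%) and 2 fell (8%), against 3.96% and 3.4% of all tested loci. Several of these genes are abundant, and of ranked loci with a mean of 100 to 1000 FPKM 18.5% rose. Lcn2 (lipocalin 2, which binds bacterial iron carriers) rose 15.1-fold (24.5 to 369 FPKM, log2 3.91 ± 0.51). Serum amyloid genes Saa1 (235 to 1062 FPKM), Saa2 (90.8 to 809.8 FPKM) and Saa3 (8.86 to 60.9 FPKM) rose, while Saa4 fell (171 to 66 FPKM). Haptoglobin, Hp (1773 to 7434 FPKM), and hemopexin, Hpx (2271 to 7216 FPKM), which clear hemoglobin and heme, rose with q of 0.0113 and 0.035 in the authors' deposited table and lost their call under the normal p. The fibrinogen chain Fga (1139.9 to 1226 FPKM) and Serpina3k (2078 to 2319.6 FPKM) were not called. Saa1 and Saa2 are near copies of each other. Since each level is 1 value for 2 mice, whether both IUB288-treated mice carried the increase was not tested.

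Of 19 tested iron genes 3 rose (15.8%, against 3.96% of all tested loci) and 16 were not called. The iron hormone hepcidin, Hamp, rose 2.63-fold (447 to 1175 FPKM) and the transferrin receptor Tfrc rose from 2.55 to 6.22 FPKM. Hfe, a part of iron sensing, rose from 26.6 to 56.6 FPKM (q = 0.00543 in the authors' deposited table). Tfrc and Hfe lost their call under the normal p. Tfr2 (116 to 133 FPKM) and Slc40a1 (26.5 to 18.8 FPKM) were not called. In the endoplasmic reticulum list 3 of 23 rose (13%) and 1 fell (4.35%), against 3.96% and 3.4% of all tested loci. Sdf2l1 rose from 12.9 to 49 FPKM and Herpud1 fell from 255 to 88.3 FPKM. The chaperone Hspa5 was level (178 to 178 FPKM).

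Of the markers of the lobule's zones, called periportal markers mostly rose, while pericentral markers changed both ways with more decreases. Of 17 tested periportal markers 6 rose and 1 fell (median log2 fold change 1.12), and of 19 pericentral markers 7 fell and 3 rose (median -0.27). The pericentral markers that fell include Glul, Cyp2e1 and Rgn (552 to 179 FPKM). Those that rose were Oat, Lhpp (47.6 to 143 FPKM) and the cation carrier Slc22a3 (1.23 to 4.03 FPKM). The periportal marker that fell was Cyp2f2 (582 to 303 FPKM, q = 0.0473 in the authors' deposited table, no longer called under the normal p). Many of these genes are also members of the urea, amino acid and P450 lists above, so the zones are not a separate measurement. In bulk liver fewer cells of a type and less RNA per cell cannot be told apart.

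Stellate cell and matrix markers had decreases and no increases. Of 27 tested 14 fell (51.9%), and all 27 had a lower value with IUB288 (median -1.06). Col1a1 and Col3a1, chains of fibrillar collagen, fell 7.36-fold (3.23 to 0.439 FPKM) and 5.52-fold (7.48 to 1.36 FPKM), and Col1a2 4.2-fold (3.08 to 0.734 FPKM). Lrat, which stores retinol in stellate cells, fell 2.31-fold (4.65 to 2.01 FPKM). The proteoglycan Dcn, the most abundant marker of the list, stood at 84.7 to 49.4 FPKM and was not called (q = 0.072 in the authors' deposited table). The summed level of the list was 329 FPKM with vehicle and 190.0 FPKM with IUB288. Most of the collagen levels are near 1 FPKM, and 5 of the 14 decreases were called under the normal p, Lrat not among them.

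Most endothelial and cholangiocyte markers also had a lower value with IUB288, and no difference between marker lists was tested. The sinusoidal endothelial markers summed to 189 and 153 FPKM, with 19 of 21 below vehicle (median -0.38) and 1 called (Lyve1, 4.61 to 0.829 FPKM). That is 4.76% called lower, against 3.4% of all tested loci. Kupffer cell and macrophage markers summed to 281 and 396 FPKM, with 2 of 22 called higher (9.09%, against 3.96% of all tested loci). These were the scavenger receptor Marco (4.78 to 12.8 FPKM) and Mpeg1 (10.3 to 25.9 FPKM). Cholangiocyte markers summed to 59.2 and 40.04 FPKM, with all 8 tested below vehicle (median -0.45) and 1 called (Krt23, 6.44 to 1.09 FPKM). Neutrophil markers summed to 5.93 and 11.6 FPKM, and lymphocyte markers to 6.94 and 5.99 FPKM. Adipocyte markers summed to 45.6 and 18.5 FPKM, with a median of -1.23 over 6 tested. Of these Fabp4 (19.5 to 8.33 FPKM) and Cidec were called lower, and 3 of 11 members were at 0 in both groups. Of 12 exocrine pancreas markers 8 were at 0 in both groups, and no skeletal muscle marker was tested. Marco and Fabp4 lost their call under the normal p. The part of these cell types in the results was not tested.

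The labelled tissue fits its markers: the 12 tested hepatocyte markers summed to 29290.4 FPKM with vehicle and 25891 FPKM with IUB288, and Apoa1 was the one called. Albumin, Alb, was listed at 0 with vehicle and at 9581 FPKM with IUB288, with too little data for a test by the authors' table, and was not read as a change. The same gap stood in the KO table (0 to 9284 FPKM).

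Ribosomal protein genes had increases and no decreases. Of 44 cytosolic ribosomal protein genes 20 rose (45.5%), all 44 had a higher value with IUB288, and the median was 0.82. The steepest increase was Rpl35 (314 to 708 FPKM, 2.25-fold). None of the 20 was called under the normal p. The respiratory chain gave 5 increases in 44 nuclear-encoded subunits (11.4%), with a median of 0.61, and none under the normal p. Among them were Atp5o (235 to 471 FPKM) and Cox7a2 (132 to 264 FPKM). Of all tested loci 3.96% rose. Of ranked loci 6.29% rose at a mean of 10 to 100 FPKM and 18.5% at 100 to 1000 FPKM, and the respiratory chain share lies between these. The replication helicase genes Mcm6 (1.47 to 5.85 FPKM) and Mcm5 (0.721 to 2.44 FPKM) rose 3.99-fold and 3.38-fold, and cyclin D1, Ccnd1, fell 3.2-fold (8.89 to 2.78 FPKM, q = 0.00945 in the authors' deposited table). Mcm5 and Ccnd1 lost their call under the normal p.

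Some lists held no call in the authors' test. In the 31 proteasome genes 1 had an unadjusted p under 0.05, in the 11 heme and globin genes 2, in the 16 antioxidant genes 1, and in the 13 heat shock and 12 p53 target genes none, and none was called under the normal p.

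**Figure D4:**
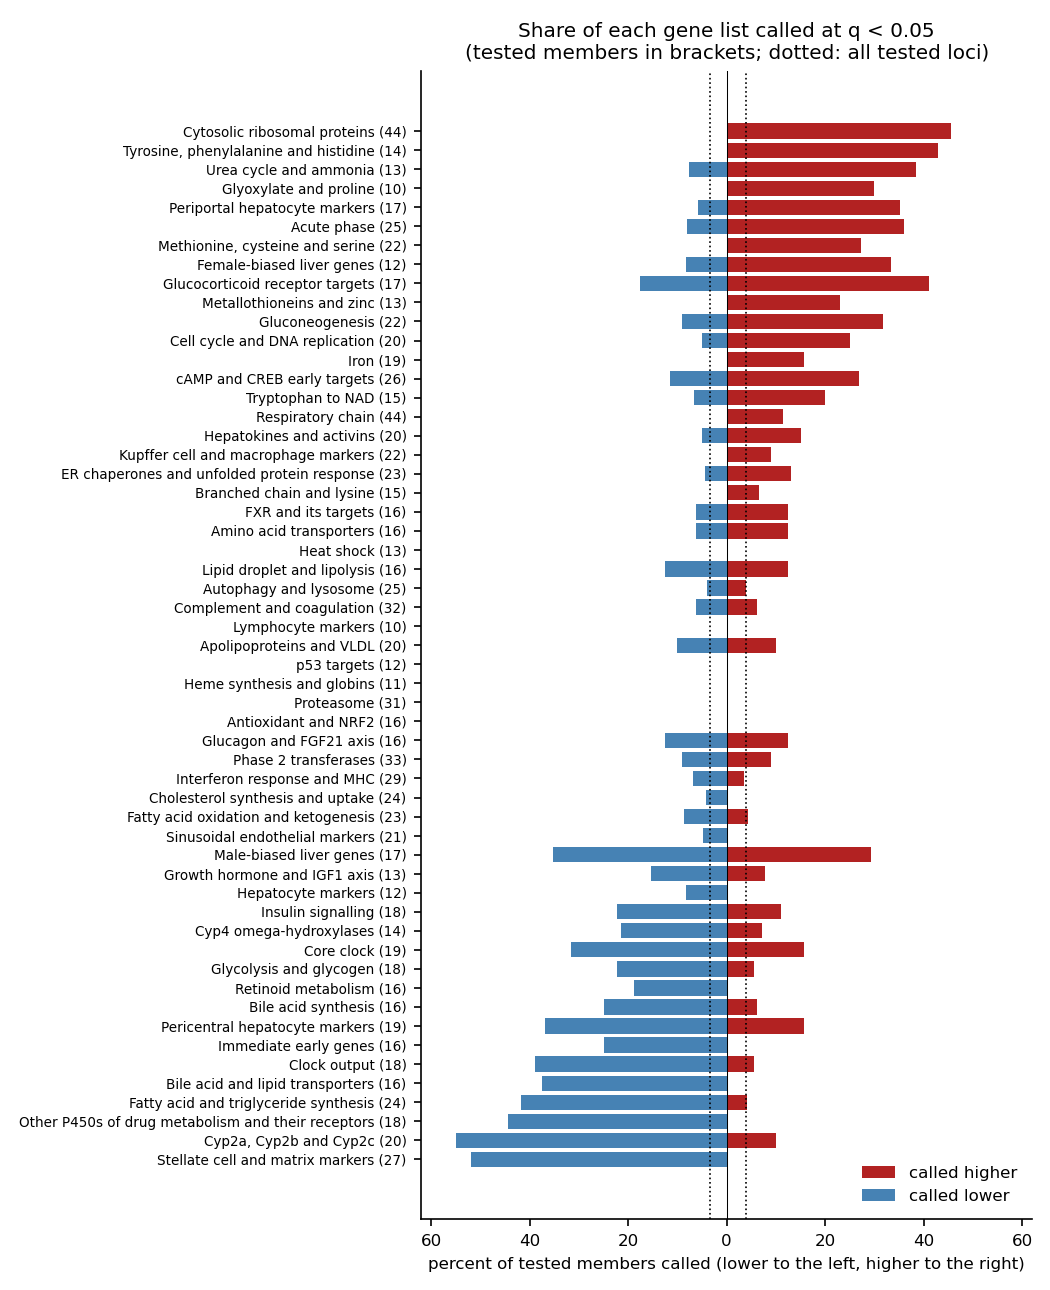
For each gene list with at least 10 tested members (number in brackets), bars show the percent of tested members called lower (blue, to the left) and higher (red, to the right), ordered by the share called higher minus the share called lower. Dotted lines mark 3.4% lower and 3.96% higher, the shares of all tested loci. Cytosolic ribosomal proteins (45.5% higher) and the Cyp2a, Cyp2b and Cyp2c families (55% lower) have the longest bars.

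Several of the largest changes lay outside these lists. Irak1, a kinase of interleukin 1 and Toll-like receptor signalling, rose 66.8-fold (14.4 to 961 FPKM, log2 6.06 ± 0.29; chrX:74013914-74023936, mm10). The level of 961 FPKM stood alone beside 14.7 to 14.8 FPKM in the KO groups, and could not be checked along the locus, for which the tables hold 1 value a group. The tubulin gene Tuba8 rose 79.4-fold (0.898 to 71.3 FPKM), the aldo-keto reductase Akr1b7 37.7-fold (0.198 to 7.48 FPKM) and the dicarboxylate carrier Slc13a2 42.9-fold (0.156 to 6.7 FPKM). In the other direction Glce, an epimerase of heparan sulfate synthesis, fell 31.1-fold (119 to 3.82 FPKM), the thyroxine carrier Serpina7 25.1-fold (19.4 to 0.773 FPKM), the peptidase neprilysin, Mme, 20.7-fold (4.55 to 0.22 FPKM) and the carboxylesterase Ces1g 13.6-fold (50.8 to 3.73 FPKM). These had q = 0.00163 in the authors' deposited table, except Akr1b7 (0.00301). The Glce level of 119 FPKM stood alone beside 3.25 to 4.09 FPKM in the KO groups, so its decrease rests on that 1 value. The implied error of Glce in KO was 808 (log2), so the test of the difference below could not call it. The ligand Wnt10a was listed at 0 with vehicle and at 9.52 FPKM with IUB288, so no fold is given.

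The same contrast in the Fxr KO mice, which share no mouse with the WT contrast, showed how far the response was seen again. Of the 591 WT increases tested in KO 302 were called higher there (51.1%, against 3.13% of all loci tested in KO), and 2 were called lower. Of the 476 WT decreases tested in KO 205 were called lower (43.1%, against 2.37%), and 2 were called higher. These shared loci are 70.6% of the KO increases and 64.5% of the KO decreases. WT increases had a median log2 fold change of 1.32 in WT and 0.97 in KO, and WT decreases -1.49 and -0.91. The WT medians come from loci chosen for their WT change and are a description. Across 10850 loci the log2 fold changes of the 2 contrasts had Pearson r = 0.783 and Spearman rho = 0.745, over loci that are not independent replicates.

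A test of the difference, from both fold changes and their implied errors, called 14 of 13521 loci (0.104%), and 146 had an unadjusted p under 0.05. That is fewer than would pass this limit with no true difference, so the test was conservative with these errors. Loci that did not pass may still differ. Of the 14, 12 were called in WT. The mitochondrial locus mt-Tl2,mt-Ts2 is 1 of the other 2: it was called in neither table and passed through implied errors of 0.0029 and 0.0012, so its difference is not read as a result. The KO fold changes of Mt2 (3.98 ± 0.68), Nnmt (3.75 ± 0.39), Cth (3.04 ± 0.46) and Cyp2c50 (-4.84 ± 0.45) were on the same side as in WT, and none of these 4 was among the 14. Several acute phase increases were not seen again. Lcn2 was 13.5 to 13.6 FPKM in KO (log2 0.01 ± 0.48), and the difference of KO minus WT was -3.91 ± 0.70, which passed. Saa2 fell in KO (36.4 to 9.05 FPKM), a difference of -5.17 ± 0.71 that also passed. Pck1, not called in WT, rose in KO (log2 2.49 ± 0.55), but the difference did not pass. The test took a normal p from the difference over its error, with Benjamini-Hochberg adjustment over all loci tested in both tables and a threshold of 0.05.

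**Figure D5:**
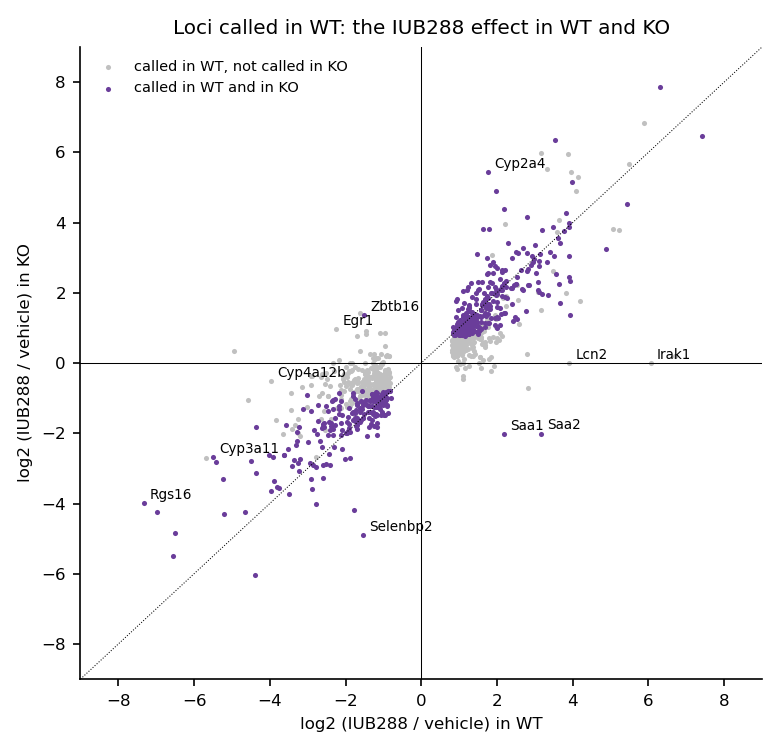
Each point is a locus called in WT and tested in KO. The x axis is log2 of IUB288 over vehicle in WT and the y axis the same in KO, with a dotted line where both are equal. Purple points were also called in KO. Labelled are 11 named genes that passed the test of the difference between KO and WT, such as Irak1 and Lcn2 near 0 in KO and Saa1 and Saa2 below 0.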

How the data were processed

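Per the labels' protocols, TRIzol was used to extract liver RNA of 8 mice (4 of them in the WT comparison) and TruSeq kits to build the libraries. No source used here says if counting was stranded. The submitters' processing notes name, with no role or order, Bowtie2 2.2.3, Cuffdiff, Cufflinks 2.2.1, TopHat2 2.0.12, Trim Galore 0.4.0 and bcl2fastq 1.8.4, and the builds hg19 and mm10. Locus coordinates match mm10 and are counted from 1.

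The authors deposited, for each comparison, a table of pooled FPKM per group, with no value per mouse. The same tables hold the deposited log2 fold change, test statistic (a score), p-value and q-value. The smallest p there is 5e-05. Per-sample columns left unmapped numbered 0. Since each table was scaled on its own (the WT IUB288 values were 1.08 times as high here as in the genotype table, a median over 10547 loci), levels were compared within a table.

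Computed here with Python 3.11.15, pandas 2.3.3, numpy 2.4.6 and scipy 1.17.1 were the ratio IUB288 over vehicle, its error (log2 fold change over the statistic), list counts, normal p-values, and the KO minus WT difference with a two-sided normal p. The error had a median of 0.41 (log2) at 10 FPKM or more. The difference test was also run on simulated data. Their noise was drawn from the same implied errors, so the run cannot show whether those errors are right. No statistic was recomputed across mice, so the calls rest on the authors' Cuffdiff model of 2 mice a group.

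Genes are named by rule: the 20 largest called changes each way with 1 symbol, listed above 0 in both groups and at 1 FPKM or more in 1; up to 6 called members of each list each way; the 15 called loci of highest FPKM; a fixed set of pathway genes; and up to 3 uncalled members per list at 10 FPKM or more. Genes outside it are marked where named, and some genes that meet it are not reported here. The members, lists and rules were chosen with earlier results of these data known. Motifs were searched on both strands from 250 bases before to 50 after each RefSeq start. Alternatives tried were other q, FPKM and pseudocount limits, normal p-values and centring.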

Additional observations from a re-analysis of the deposited data

Results flagged for a closer look

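The following genes were called in WT and passed the test of the difference between the IUB288 effect in KO and in WT (KO minus WT log2 fold change over its error, as a normal p with Benjamini-Hochberg adjustment over 13521 loci, under 0.05). Differences are log2 ± the implied error.

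Irak1 stood at 14.7 to 14.8 FPKM in KO against 14.4 to 961 FPKM in WT, and differed by -6.06 ± 0.47. This difference rests on the 961 FPKM value, which could not be checked along the locus. The acute phase genes Saa2 (-5.17 ± 0.71), Saa1 (-4.21 ± 0.67) and Lcn2 (-3.91 ± 0.70) rose in WT, whereas in KO Saa2 (36.4 to 9.05 FPKM) and Saa1 (82.1 to 20.1 FPKM) fell and Lcn2 was not called. Selenbp2 fell further in KO (155 to 5.2 FPKM) than in WT (9.07 to 3.13 FPKM), by -3.36 ± 0.68, from a vehicle level that was higher in KO, each level being from its own table. Derl3, named here after its values were seen, rose in WT (1.3 to 9.13 FPKM) and was not called in KO (4.22 to 2.57 FPKM), a difference of -3.52 ± 0.85.

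Other genes had a higher fold change in KO. Cyp3a11 fell less there (749 to 118 FPKM; difference 2.82 ± 0.69), as did Rgs16 (22.2 to 1.4 FPKM; 3.34 ± 0.78). Cyp4a12b, which fell in WT, was not called in KO (6.92 to 4.88 FPKM; 3.48 ± 0.83). Zbtb16 fell in WT and rose in KO (1.97 to 5.05 FPKM; 2.87 ± 0.68). Egr1 fell in WT and was not called in KO (2 to 3.92 FPKM; 3.21 ± 0.68). Cyp2a4 rose further in KO (1.09 to 47.3 FPKM; 3.68 ± 0.80). Vehicle levels of Zbtb16, Egr1 and Rgs16 were higher in WT (11.9, 8.93 and 110 FPKM) than in KO, each level being from its own table. Their IUB288 levels in WT (4.18, 1.89 and 0.686 FPKM) lay nearer to those in KO, so these 3 differences rest more on vehicle. Cyp3a11 and Cyp4a12b had lower vehicle levels in WT (404 and 5.68 FPKM) than in KO. With 2 mice a group in 1 pooled value, the part of single mice in these differences was not tested.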

How the results depend on the processing

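Of 1117 called loci, 642 (345 higher, 297 lower) passed q under 0.01, and 392 (219 higher, 173 lower) passed when normal p-values were taken from the deposited statistic. A minimum of 1 FPKM in both groups left 308 decreases in place of 516. Loci at 2-fold or more numbered 1079, and 649 with a minimum of 5 FPKM, 478 with a minimum of 10 FPKM and 689 with a pseudocount of 1 FPKM. Of WT calls, 507 were called the same way in KO, and 769 at an unadjusted p under 0.05 there. Under q under 0.1, 1 FPKM in either group, 2-fold as well, 1-symbol loci and centred fold changes the counts of calls stayed within 1.5 times. The KO minus WT count was 14, and 11 with errors implied by p-values. Of 241 called named genes 104 lost their call under normal p-values, and no named gene changed sign under a pseudocount. With a pseudocount of 1 FPKM the fold of 55 called named genes shrank by over 1.5 times, since the added FPKM pulls low levels together. No paired analysis was possible because the tables hold 1 pooled value per group, and leaving out single mice could not be run for the same reason. The depth per library is unknown, so no limit of detection is given, and a level of 0 may be a failed estimate.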

Other observations

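The mitochondrial genome gave large but mostly uncalled values. The transfer RNA locus mt-Tl1 rose 5.85-fold (8834 to 51639 FPKM, q = 0.0228 in the authors' deposited table) and the complex I subunit mt-Nd3 2.15-fold (4719 to 10124 FPKM, q = 0.0241 there). Both lost their call under the normal p. The complex III subunit mt-Cytb stood at 11489 to 14116 FPKM and the ribosomal RNA mt-Rnr2 at 1056 to 1176 FPKM, and neither was called. Transfer RNAs are shorter than the fragments of such libraries, so their FPKM are uncertain.

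Retinoid genes gave 3 decreases in 16 tested (18.8%, against 3.4% of all tested loci). Among them were Cyp26a1, which degrades retinoic acid (9.26 to 1.44 FPKM), and Lrat, which is also in the stellate list. The plasma retinol carrier Rbp4 was not called (3265 to 3459.9 FPKM). In complement and coagulation 2 of 32 tested genes rose (6.25%) and 2 fell (6.25%), against 3.96% and 3.4% of all tested loci. C6 (31.4 to 67.3 FPKM) and C8b (57.7 to 113 FPKM) rose, and the decreases were F13b (63.7 to 27.1 FPKM) and the locus C1s,Gm5077 (127 to 57.4 FPKM). Of the genes named in this paragraph as changed, Cyp26a1 was the one called under normal p-values.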
